A study of Mus musculus with 6 samples.

Results

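The 46 genes described here encode enzymes and structural proteins that modify or move chromatin, the complex of DNA and histones in the nucleus. They were listed by gene name in 6 classes, with earlier results of these data known: polycomb proteins, DNA methylation, histone deacetylases, histone acetyltransferases, histone methylation, and remodelling with chromatin architecture. Of these genes 40 had a named probe among the 16593 genes named on the array. They were read by 62 probes, of which 56 passed a filter on dim probes, and 38 genes had at least 1 probe past it. Dnmt3a and Mbd2 had dim probes only. No probe carried the names Tet1, Tet2, Crebbp, Kmt2a, Suv39h1 or Kdm5a here, and these 6 genes were not analysed.

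Fresh thymocytes were taken from 3 mice lacking Klf4 in T cells and from 3 control mice, and each mouse's RNA was read on its own Illumina MouseRef-8 v2 bead array. All 6 mice were of the C57/BL6 background and 8 to 10 weeks old, and all carried the floxed Klf4 allele (Klf4fl/fl). The knockout mice (Th_KO) also carried the CD4-Cre transgene (CD4-Cre+), in which the Cd4 promoter drives Cre in T-lineage cells, and the controls (Th_WT) did not (CD4-Cre-). Deletion of Klf4 and presence of Cre therefore cannot be told apart in this comparison. The cells were enriched with 1 of several commercial CD4 kits and comprised CD4+CD8+ (DP) and CD4 single-positive (SP4) thymocytes. The labels give neither the kit nor the sex for any mouse.

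Gene activity in a thymocyte depends on marks placed on histones and DNA and on the position of nucleosomes. Polycomb complexes methylate and ubiquitinate histones at repressed genes, deacetylases and acetyltransferases remove and add acetyl groups, DNA methyltransferases copy and set methyl marks, and ATP-driven remodellers slide or evict nucleosomes. In the thymus several of these proteins are required for the passage from DP to single-positive cells. KLF4 binds, through zinc fingers, CACCC-like and GC-rich promoter elements.

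Levels are scores in z units: every deposited array was centred on 0 with a spread (SD) of 1 across its probes, and the arrays were then brought together here by quantile normalization between arrays. Whether intensities or their logarithms had been standardised is unknown, so differences are given in z units, knockout minus control, and no fold change is stated. Levels of different probes are not set against each other. Each value is given for knockouts and controls in the order of mice 1, 2 and 3. Differences were tested with limma, with p-values adjusted over all 15418 probes tested.

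Klf4, the targeted gene, checks the labels: 2 of its 3 probes were lower in Th_KO. On probe ILMN_1241903 the difference was -0.674 z units (SE 0.068, adjusted p = 0.00265) and on ILMN_1221264 it was -0.376 (SE 0.052, adjusted p = 0.046), whereas ILMN_2999439 differed by 0.037 (adjusted p = 0.944). The second call was lost without the variance trend (adjusted p = 0.141) and when any mouse other than control 3 was left out, with an adjusted p of up to 0.267. It was kept without control 3. Those 2 probes were the only ones of the array called lower (0.013%), and 0 probes (0%) were called higher. Arrays correlated pairwise with r from 0.992 to 0.9963 across probes.

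Control 3 stood apart on sex-linked genes. Xist, the RNA that silences an X chromosome in female cells, read 2.116 there and -0.558 to -0.404 in the other 5 mice, and the Y-linked Eif2s3y read -0.834 against 1.533 to 1.894. For lists of cell markers, the median of each mouse takes all genes on the array, dim ones included. In the T-lineage list (9 of 11 genes above the dim filter) that median was the value of 1 gene, Dntt, in every mouse, from 2.788 to 2.893 among knockouts and from 2.948 to 2.982 among controls. Over the list the median difference was -0.02. Rag1, Dntt and Themis were lower without overlap, whereas Cd3e, Cd3d, Cd3g, Cd4, Cd8b1 and Rag2 overlapped. The DP marker Cd8b1 read 4.557 to 4.674, whereas the Cd8a probe was dim in all mice. The cycling list (13 of 15 above the filter) had medians of 1.451 to 1.554 in knockouts and 1.46 to 1.596 in controls. Over that list the median difference was 0.043. Mcm3 (0.191) and Mcm7 (0.179) were higher without overlap and Pcna (-0.094) was lower without overlap, whereas its other genes overlapped. The myeloid and dendritic list (6 of 8) had medians of 0.823 to 1.07 and 0.942 to 1.024. The B cell list (3 of 5) had medians of -0.561 to -0.502 and -0.573 to -0.443, the stroma list (3 of 7) -0.681 to -0.644 and -0.669 to -0.638, which are values of dim probes, and both erythroid genes were dim. In each of these lists limma called 0 genes, and at an unadjusted p under 0.05 there were 2 in the T-lineage list, 2 in the cycling list and 0 in the others. The part of these values in the results that follow was not tested, and in bulk RNA fewer cells of a type and less RNA per cell cannot be told apart.

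The chromatin genes showed no difference between genotypes that passed the threshold. With 1 probe per gene, 0 of the 38 tested genes were called, the smallest adjusted p being 0.256 for Kansl1l. At an unadjusted p under 0.05 there were 3 genes (7.89%), against 920 of 10399 genes over the array (8.85%). All 3 were lower in the knockout, namely Rnf2, Sirt1 and Kansl1l. Over the array 4.98% of genes were lower at that threshold and 3.87% were higher. The values of all 3 knockout mice lay outside those of all 3 controls for 6 genes (15.8%), against 14.2% of all genes tested. Of these Rnf2, Hdac2, Hdac3 and Kansl1l were lower and Hdac4 and Setd2 were higher. Both shares are near the background of the array.

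The differences were small on either side of 0. They were above 0 for 20 genes and below 0 for 18, with a median of 0.009 z units and a range of -0.884 to 0.103. Their median size, without regard to sign, was 0.042, the same as over all 10399 genes. The 95% interval of the difference lay within 0.2 z units of 0 on both sides for 27 of the 38 genes (71.1%), against 76.9% of all genes. Larger shifts are thus outside the interval for most of these genes, but only on the 1 probe used per gene. Some genes counted as within had another probe whose interval went past 0.2 z units. Among them was Chd4, at -0.059 to 0.171 on the probe used and 0.18 to 0.533 on ILMN_2654822. The median half-width of the intervals was 0.116 z units.

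**Figure D1:**
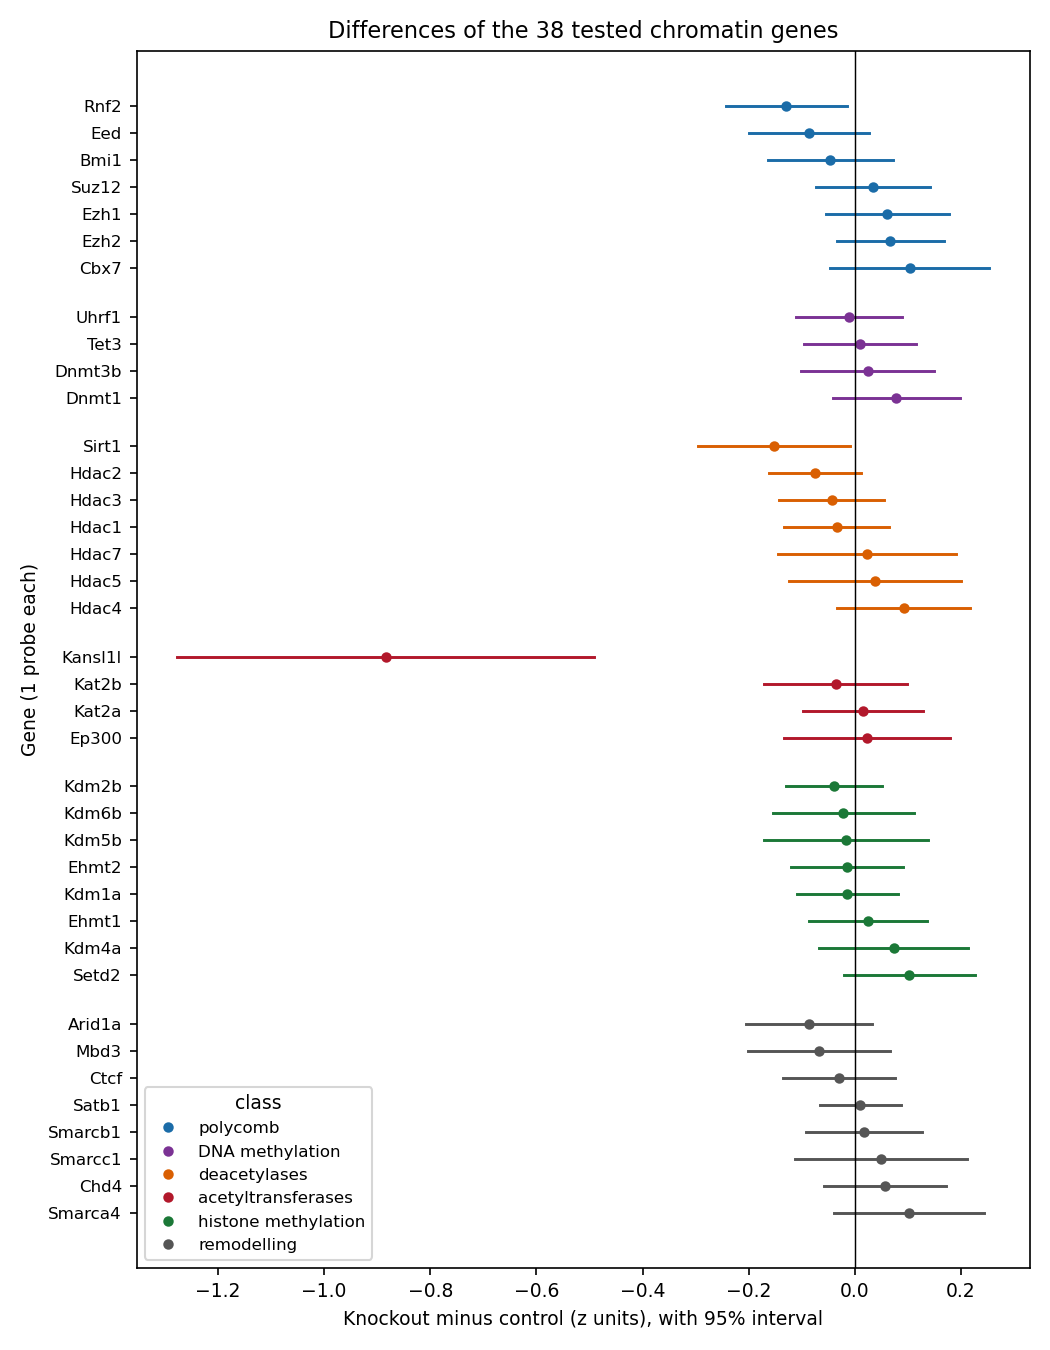
Knockout minus control difference in z units (x axis) of each of the 38 tested chromatin genes (y axis), grouped and coloured by class. Points are limma estimates over 3 knockout and 3 control mice and lines are 95% intervals; all differences but that of Kansl1l (-0.884) lie between -0.152 and 0.103.

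**Figure D2:**
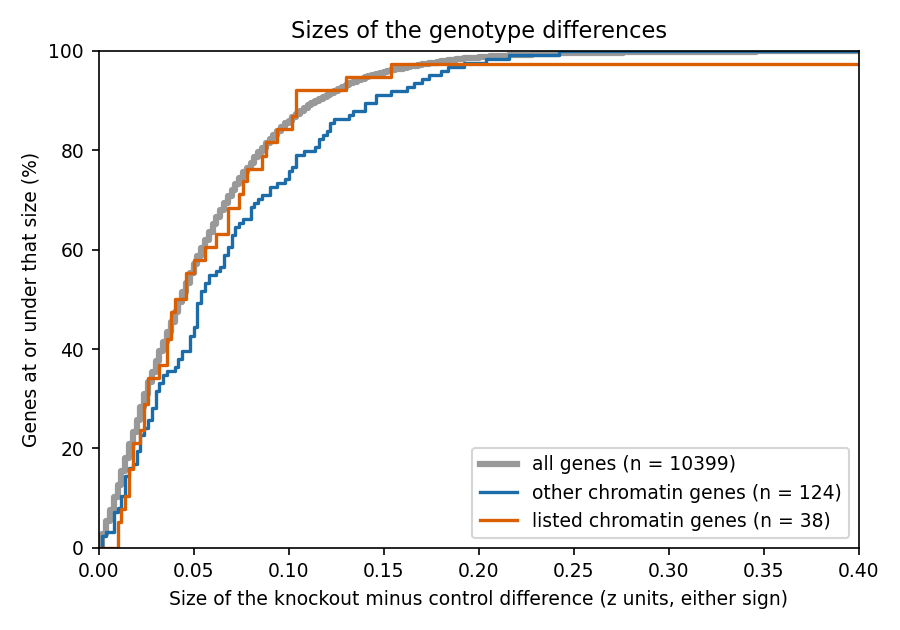
Cumulative share of genes (y axis, %) with a genotype difference at or under the size on the x axis (z units, either sign), for the 38 listed chromatin genes, 124 other chromatin genes and all 10399 genes tested. The x axis ends at 0.4, which leaves Kansl1l off the plot, and the listed chromatin genes and all genes share a median size of 0.042.

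The promoters of the 3 genes with the smallest unadjusted p and of Chd4 are shown because they are the genes on which the results turn. Chd4 was chosen after its values were seen, for its other probes. Each window runs from 250 bases before to 50 bases after the transcription start in RefSeq's annotation of GRCm38.p6 and is written 5′ to 3′ on the gene's own strand. Capitals mark matches, on either strand and with overlaps allowed, to CCNCNCCC, where N is any base, a motif of the CACCC-like type that KLF proteins bind.
Kansl1l, chr1:66817546-66817845, minus strand: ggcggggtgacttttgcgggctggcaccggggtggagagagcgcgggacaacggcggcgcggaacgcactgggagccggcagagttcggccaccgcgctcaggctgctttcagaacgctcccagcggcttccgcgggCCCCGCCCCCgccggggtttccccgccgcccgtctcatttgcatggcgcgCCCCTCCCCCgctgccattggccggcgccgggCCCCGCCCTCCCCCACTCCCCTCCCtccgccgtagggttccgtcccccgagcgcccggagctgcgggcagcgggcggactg
Rnf2, chr1:151500942-151501241, minus strand: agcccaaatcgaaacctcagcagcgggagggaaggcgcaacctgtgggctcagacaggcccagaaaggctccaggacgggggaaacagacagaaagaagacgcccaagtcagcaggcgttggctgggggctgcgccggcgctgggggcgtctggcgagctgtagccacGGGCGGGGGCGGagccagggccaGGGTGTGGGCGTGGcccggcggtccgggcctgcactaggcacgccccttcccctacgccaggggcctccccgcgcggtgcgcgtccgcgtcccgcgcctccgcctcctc
Sirt1, chr10:63338986-63339285, minus strand: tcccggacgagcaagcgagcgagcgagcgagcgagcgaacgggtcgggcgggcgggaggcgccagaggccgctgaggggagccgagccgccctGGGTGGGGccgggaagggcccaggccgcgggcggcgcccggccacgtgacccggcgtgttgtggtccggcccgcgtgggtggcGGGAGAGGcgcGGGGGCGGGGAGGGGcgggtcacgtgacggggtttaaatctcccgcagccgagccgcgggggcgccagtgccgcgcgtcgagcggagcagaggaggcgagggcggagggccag
Chd4, chr6:125095913-125096212, plus strand: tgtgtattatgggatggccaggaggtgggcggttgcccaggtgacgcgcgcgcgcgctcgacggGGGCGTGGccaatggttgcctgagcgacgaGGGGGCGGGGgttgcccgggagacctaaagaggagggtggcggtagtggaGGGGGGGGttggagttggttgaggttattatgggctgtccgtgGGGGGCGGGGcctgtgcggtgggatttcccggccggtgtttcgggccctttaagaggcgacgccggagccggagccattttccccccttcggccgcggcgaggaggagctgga

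All 4 windows were GC-rich and held the motif more than once. Kansl1l held 8 matches at 76.7% GC, Rnf2 4 at 72.7%, Sirt1 5 at 79% and Chd4 6 at 68.3%. A second annotated start of Kansl1l had a window of 44% GC with 0 matches, and a second start of Chd4 had 6 matches. That Chd4 window overlaps the one shown, and some of its matches are the same sites. The motif is common: 27 of the 35 tested chromatin genes with a window held it (77.1%, median GC 66%), against 5897 of 8467 of all tested genes (69.6%, median GC 60%). The stricter CCACACCC was in 1 of these 35 windows (2.86%), that of Rnf2, and in 4.61% of those of all tested genes. A match describes the letters of the window and is not a measured binding site.

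Kansl1l, listed in the histone acetyltransferase class, had the largest difference of all 38 genes. It is the paralog of KANSL1, a scaffold of the NSL complex, in which the acetyltransferase MOF acts. Its single probe read 0.656, -0.158 and -0.109 in the knockout mice and 0.915, 0.769 and 1.358 in the controls. All knockouts were below all controls, with knockout 1 close to control 2 and the other knockouts well below it. The difference was -0.884 z units (SE 0.182, 95% interval -1.277 to -0.492, unadjusted p = 0.000297, limma adjusted p = 0.256) and did not pass the threshold. Without knockout 1 it was -1.148 with an adjusted p of 0.00207, the single call among these genes under any alternative. Over all alternatives its adjusted p ranged from 0.00207 to 0.754. The spread within each group was wide, at SD 0.457 in knockouts and 0.307 in controls. The moderated test draws such a spread toward that of probes of like level, which narrows the SE and the interval. With a robust variance, which limits this for unusually variable probes, the limma p was 0.0427 unadjusted and 0.538 adjusted. Without Kansl1l, the other 37 genes had differences from -0.152 to 0.103 and a median of 0.01.

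The other genes listed in the acetyltransferase class overlapped between genotypes. Ep300, which encodes the coactivator p300, read 1.776, 1.615 and 1.574 in knockouts and 1.737, 1.472 and 1.688 in controls. Its difference was 0.022 (SE 0.072, adjusted p = 0.959). Kat2b, which encodes the SAGA-type acetyltransferase PCAF, read 0.684, 0.641 and 0.809 in knockouts and 0.765, 0.658 and 0.82 in controls on its brightest probe, ILMN_1231686. That probe gave -0.036 (SE 0.063, adjusted p = 0.91), from -0.085 without knockout 3 to 0 without control 3, and the others gave 0.02 (ILMN_1215305) and 0.078 (ILMN_2591641), with adjusted p of 0.957 and 0.682. Kat2a, its close relative GCN5, averaged 0.688 ± 0.013 in knockouts and 0.673 ± 0.05 in controls (SD, n = 3 each).

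The polycomb genes had differences of both signs, with 4 of 7 above 0 and a median difference of 0.034. Rnf2 encodes RING1B, the ubiquitin ligase of polycomb repressive complex PRC1. It read 0.011, -0.025 and -0.087 in knockouts and 0.147, 0.084 and 0.055 in controls. The groups did not overlap, although the highest knockout and the lowest control were close. The difference was -0.129 (SE 0.053, 95% interval -0.243 to -0.015, unadjusted p = 0.0293, adjusted p = 0.5), and the unadjusted p reached 0.114 with 1 mouse left out.

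Eed, a core subunit of the methylating complex PRC2, read 1.06, 1.031 and 1.15 in knockouts and 1.189, 1.15 and 1.159 in controls. Only knockout 3 reached the control range, and the difference was -0.086 (SE 0.052, adjusted p = 0.675). Cbx7, a PRC1 subunit that reads methylated histone H3, had 1.089, 0.953 and 1.032 in knockouts and 0.814, 0.87 and 1.079 in controls. Control 3 was level with the knockouts while the other controls were below them. The Cbx7 difference was 0.103 (SE 0.069, adjusted p = 0.701) and ranged from 0.05 without control 1 to 0.182 without control 3. Suz12, the third core subunit of PRC2, averaged 3.081 ± 0.056 in knockouts and 3.047 ± 0.081 in controls, and Bmi1, a PRC1 subunit, 0.321 ± 0.059 and 0.367 ± 0.026 (SD, n = 3 each).

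Ezh2, the main methyltransferase of PRC2 in dividing cells, gave opposite signs on its probes. On ILMN_1234171 the knockouts read 2.737, 2.717 and 2.631 and the controls 2.656, 2.577 and 2.651, an overlap, with a difference of 0.067 (SE 0.046, adjusted p = 0.708), from 0.042 without control 2 to 0.099 without knockout 3. On ILMN_2988572 the knockouts read 0.124, 0.095 and 0.051 and the controls 0.275, 0.346 and 0.134, with no overlap. That probe differed by -0.161 (SE 0.061, unadjusted p = 0.0207, adjusted p = 0.473). The third, ILMN_2606429, was dim at -0.825 ± 0.076 in knockouts and -0.872 ± 0.073 in controls. The mean of the tested probes gave -0.047. Ezh1, the related methyltransferase of resting cells, was singled out after its values were seen because its probes also disagreed. ILMN_3107974 gave 0.061 (SE 0.054, adjusted p = 0.782), with overlap, and 0.033 to 0.104 with 1 mouse left out. ILMN_2773467 gave -0.11 (SE 0.04, unadjusted p = 0.016, adjusted p = 0.461), without overlap. Where in the transcripts these probes lie was not analysed here.

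**Figure D3:**
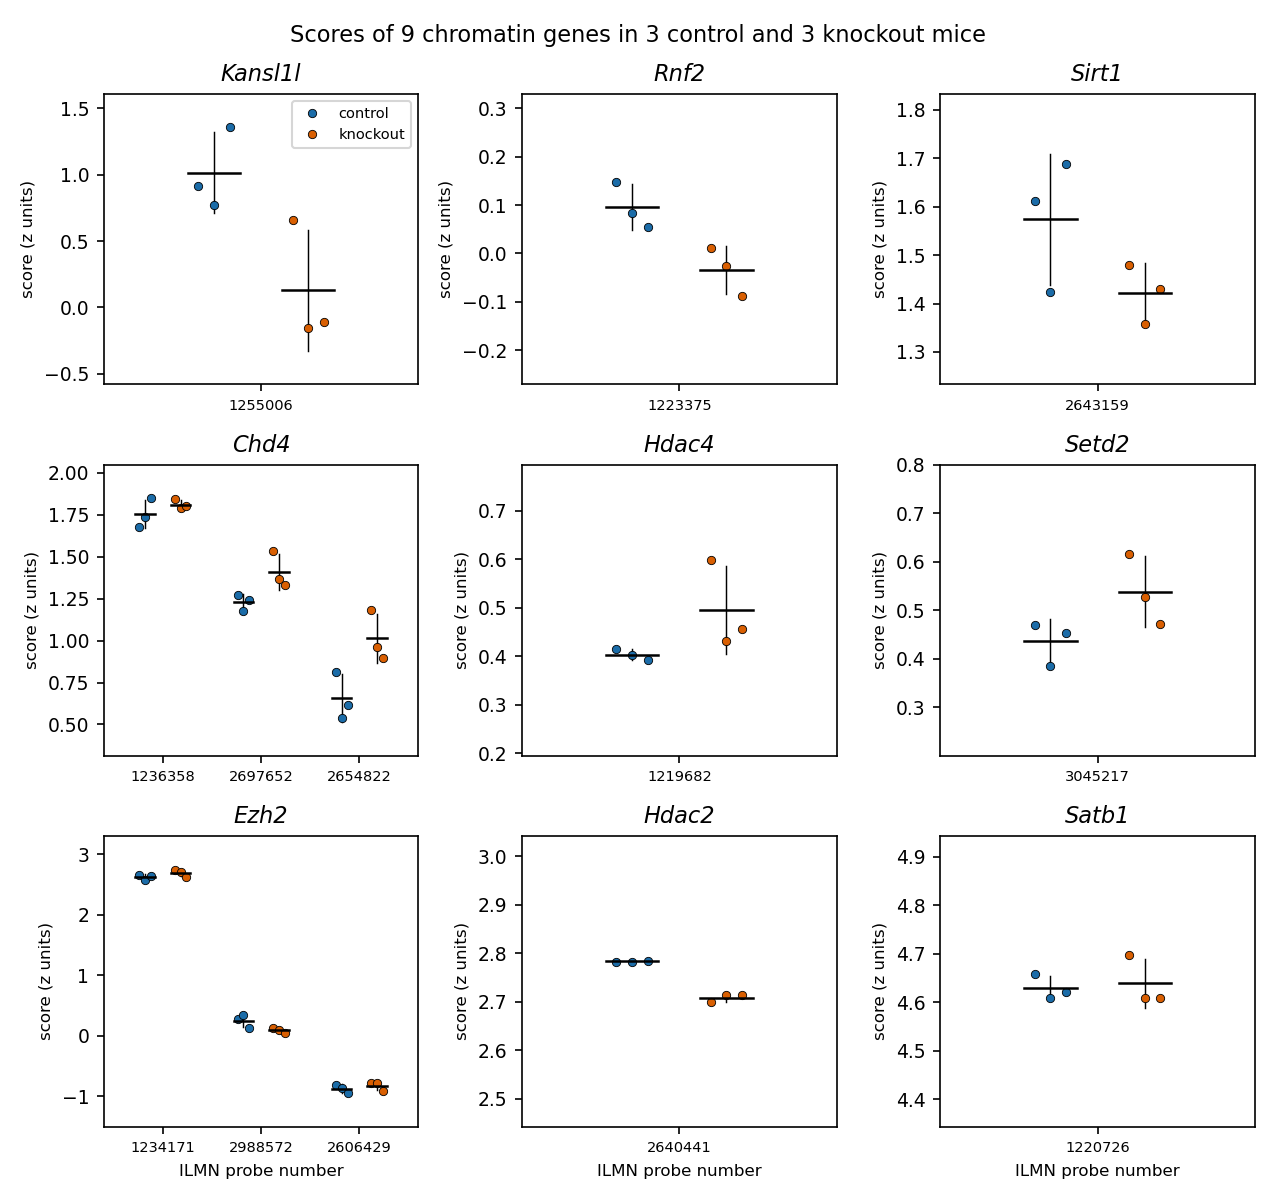
Scores in z units (y axes, each with its own range) of 9 chromatin genes, with each probe of a gene on the x axis. Points are single mice (blue for 3 controls, orange for 3 knockouts, left to right mice 1 to 3), horizontal lines are means and vertical lines are 1 SD; on Kansl1l knockout 1 sits at 0.656 and knockouts 2 and 3 at -0.158 and -0.109.

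Genes of DNA methylation had the smallest spread of differences, from -0.011 to 0.078 over the 4 tested, with 0 at an unadjusted p under 0.05. Dnmt1, the enzyme that copies methyl marks after replication, read 2.175, 2.003 and 2.089 in knockouts and 2.061, 1.938 and 2.034 in controls. The ranges overlapped and the difference was 0.078 (SE 0.055, adjusted p = 0.719). With 1 mouse left out it ranged from 0.035 without knockout 1 to 0.121 without knockout 2. Uhrf1, which brings DNMT1 to newly copied DNA, read 3.118, 2.996 and 2.997 in knockouts and 3.023, 3.096 and 3.025 in controls on ILMN_2517041. Its difference was -0.011 (SE 0.046, adjusted p = 0.967), whereas ILMN_2497581 gave 0.14 (SE 0.07, adjusted p = 0.594).

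Dnmt3b, which sets new methyl marks, read 0.486, 0.555 and 0.635 in knockouts and 0.476, 0.556 and 0.571 in controls, a difference of 0.024 (SE 0.058, adjusted p = 0.941). On its second probe, ILMN_3114377, Dnmt3b gave -0.021 (SE 0.063, adjusted p = 0.954). Tet3, which oxidises methylcytosine, averaged -0.567 ± 0.073 and -0.576 ± 0.075. The dim genes were Dnmt3a, the other enzyme for new marks, at -0.773 ± 0.037 in knockouts and -0.788 ± 0.091 in controls, and Mbd2, a reader of methylated DNA, at -0.78 ± 0.015 and -0.858 ± 0.068. These are means ± SD with n = 3 each, and the dim genes were not tested.

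The deacetylases were below 0 for 4 of 7 genes, with a median difference of -0.034. Sirt1 encodes a deacetylase that depends on NAD. It read 1.48, 1.357 and 1.429 in knockouts and 1.611, 1.424 and 1.687 in controls. Control 2 lay among the knockouts and the other controls lay above them. The difference was -0.152 (SE 0.066, 95% interval -0.295 to -0.009, unadjusted p = 0.0389, adjusted p = 0.536). It was -0.227 without control 2 and -0.096 without control 3.

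Hdac2, a class I enzyme and catalytic subunit of the NuRD and SIN3 complexes, read 2.699, 2.713 and 2.713 in knockouts and 2.783, 2.782 and 2.785 in controls. The groups did not overlap and the spread within each was narrow, at SD 0.008 and 0.002. The moderated test, which draws each gene's spread toward that of probes of like level, gave -0.075 (SE 0.04, 95% interval -0.162 to 0.011, unadjusted p = 0.0831, adjusted p = 0.622). Its partner Hdac1 read 1.9, 1.891 and 1.932 in knockouts and 1.973, 1.918 and 1.935 in controls, with overlap and a difference of -0.034 (SE 0.046, adjusted p = 0.865), from -0.046 to -0.019 with 1 mouse left out.

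Hdac3, the enzyme of the NCoR and SMRT corepressor complexes, averaged 2.019 ± 0.015 in knockouts and 2.063 ± 0.039 in controls (SD, n = 3 each), and its highest knockout, 2.036, was just under its lowest control, 2.037. Hdac4, a class IIa enzyme that shuttles between nucleus and cytoplasm, read 0.598, 0.431 and 0.457 in knockouts and 0.414, 0.403 and 0.392 in controls. All knockouts were above all controls, knockout 1 by the most. Its difference was 0.092 (SE 0.058, adjusted p = 0.679), and it ranged from 0.041 without knockout 1 to 0.124 without knockout 2. The other class IIa genes averaged 1.529 ± 0.124 and 1.492 ± 0.139 for Hdac5, and 2.553 ± 0.102 and 2.53 ± 0.179 for Hdac7, whose protein leaves the thymocyte nucleus on T-cell receptor signalling.

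Genes of histone methylation had a median difference of -0.015, with 5 of 8 below 0 and 0 at an unadjusted p under 0.05. Setd2, which trimethylates lysine 36 of histone H3 over transcribed genes, read 0.616, 0.528 and 0.471 in knockouts and 0.47, 0.385 and 0.454 in controls. The groups were separated by 0.471 against 0.47 at their nearest. The difference was 0.102 (SE 0.057, adjusted p = 0.644), from 0.064 without knockout 1 to 0.136 without knockout 3. Kdm4a, a demethylase of lysines 9 and 36, read 0.595, 0.62 and 0.469 in knockouts and 0.57, 0.374 and 0.52 in controls, a difference of 0.074 (SE 0.065, adjusted p = 0.785), which ranged from 0.017 without control 2 to 0.12 without knockout 3. Kdm2b, a demethylase that also brings a PRC1 form to unmethylated CpG islands, read -0.564, -0.611 and -0.513 in knockouts and -0.561, -0.533 and -0.477 in controls, a difference of -0.039 (SE 0.042, adjusted p = 0.825), from -0.064 without knockout 3 to -0.015 without knockout 2. Both overlapped between genotypes. The second probe of Kdm2b, ILMN_3069800, gave 0.01 (SE 0.038, adjusted p = 0.963), and that of Kdm4a was dim.

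On the brightest probe of each, the remaining 5 genes of this class differed by -0.022 to 0.025. They were the methyltransferase genes Ehmt1 (0.025) and Ehmt2 (-0.015), whose proteins act on lysine 9 of histone H3, and the demethylase genes Kdm1a (-0.014), Kdm5b (-0.017) and Kdm6b (-0.022). KDM1A and KDM5B act on lysine 4 of histone H3, and KDM6B removes the mark that PRC2 sets. Over all tested probes, Ehmt1 ranged from 0.003 to 0.088, Ehmt2 from -0.08 to -0.015 and Kdm6b from -0.03 to -0.022. On Ehmt1 probe ILMN_2603660 (0.063, SE 0.049, adjusted p = 0.739) all knockouts were above all controls.

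Among remodellers, Chd4 encodes the ATPase of the NuRD complex, which in thymocytes takes part in Cd4 transcription. All 3 of its probes had differences above 0, of unequal size. ILMN_1236358, the brightest, read 1.841, 1.789 and 1.801 in knockouts and 1.679, 1.737 and 1.848 in controls, with overlap through control 3 and a difference of 0.056 (SE 0.053, adjusted p = 0.805). That difference ranged from 0.018 without control 1 to 0.103 without control 3.

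On Chd4 probe ILMN_2697652 the knockouts read 1.533, 1.368 and 1.329 and the controls 1.27, 1.177 and 1.241. On ILMN_2654822 the knockouts read 1.18, 0.96 and 0.898 and the controls 0.815, 0.541 and 0.613. Neither probe overlapped between genotypes. The differences were 0.181 (SE 0.06, unadjusted p = 0.0102, adjusted p = 0.439) and 0.356 (SE 0.082, 95% interval 0.18 to 0.533, unadjusted p = 0.000754, adjusted p = 0.312), and neither passed. The mean of the 3 probes differed by 0.198 (unadjusted p = 0.00457, adjusted p = 0.375).

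Across all 56 tested probes of the chromatin genes, 7 had an unadjusted p under 0.05 (12.5%), against 8.82% of all probes tested, and 0 passed the adjusted threshold. The 7 probes were those of Rnf2, Sirt1 and Kansl1l and the probes of Chd4, Ezh1 and Ezh2 given above. Of the 12 genes with several tested probes, 6 had differences of 1 sign and 6 of both signs. Probes of 1 gene share its transcripts and are not independent.

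The other remodelling genes overlapped between genotypes. Smarca4, the BRG1 ATPase of the BAF (SWI/SNF) complexes, read 1.034, 0.887 and 0.769 in knockouts and 0.776, 0.779 and 0.83 in controls. Knockout 1 was the highest and knockout 3 the lowest of all 6 mice. The difference was 0.102 (SE 0.066, adjusted p = 0.685), from 0.033 without knockout 1 to 0.166 without knockout 3. Arid1a, the DNA-binding BAF subunit, read -0.499, -0.385 and -0.501 in knockouts and -0.471, -0.382 and -0.27 in controls. Its difference was -0.087 (SE 0.055, adjusted p = 0.682) and ranged from -0.135 without control 1 to -0.035 without control 3.

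Mbd3, a NuRD subunit, read 1.088, 1.134 and 1.184 in knockouts and 1.167, 1.329 and 1.113 in controls. The difference of -0.068 (SE 0.062, adjusted p = 0.797) ranged from -0.113 without control 3 to -0.004 without control 2. The BAF core subunits Smarcb1 and Smarcc1 averaged 1.11 ± 0.005 and 0.848 ± 0.166 in knockouts and 1.092 ± 0.048 and 0.799 ± 0.063 in controls (SD, n = 3 each).

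Both architectural proteins were within the spread of the mice. Satb1, which organises thymocyte chromatin into loops, read 4.698, 4.61 and 4.61 in knockouts and 4.658, 4.61 and 4.621 in controls. The shared value is the rank shared after quantile normalization. Its difference was 0.01 (SE 0.035, adjusted p = 0.962), and on the deposited scores it was 0.158 (unadjusted p = 0.173, adjusted p = 0.74). Ctcf, which marks the borders of chromatin domains, read 1.947, 1.867 and 1.837 in knockouts and 1.936, 1.924 and 1.882 in controls, a difference of -0.03 (SE 0.049, adjusted p = 0.901), from -0.062 without knockout 1 to -0.007 without knockout 3.

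**Figure D4:**
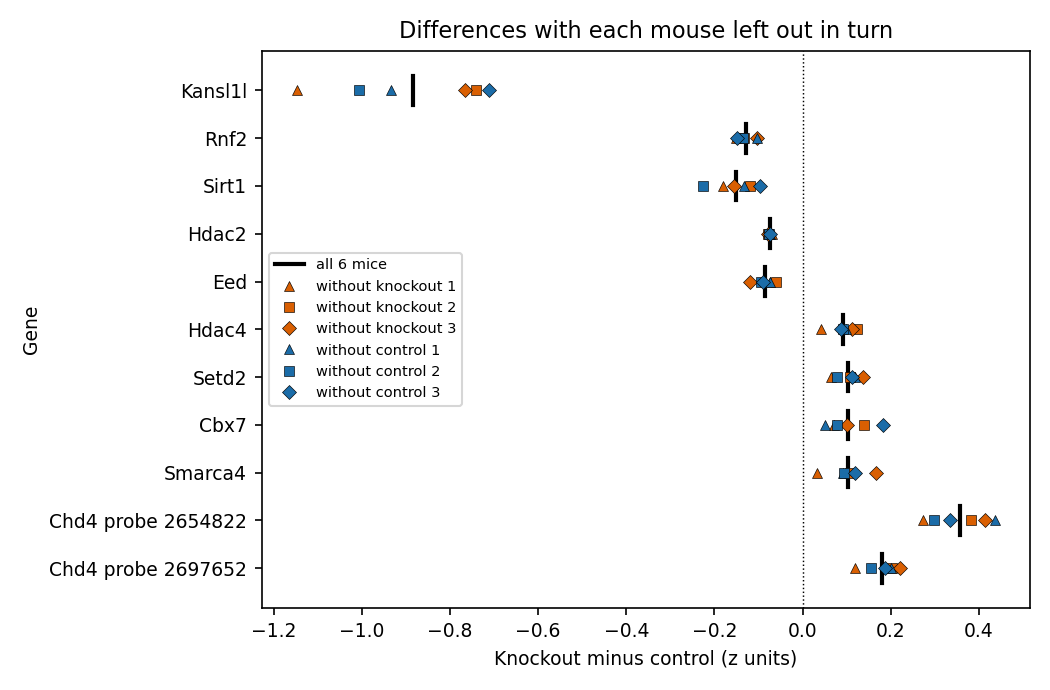
Knockout minus control difference in z units (x axis) of 11 probes of chromatin genes (y axis) with all 6 mice (black bars) and with each mouse left out in turn (symbols). All estimates shown keep their sign. For Kansl1l, Rnf2, Hdac2, Hdac4, Setd2 and both Chd4 probes the groups did not overlap, so leaving out 1 mouse could not turn it. Kansl1l moves from -1.148 without knockout 1 to -0.712, and Sirt1 from -0.227 without control 2 to -0.096 without control 3.

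Single mice contributed unevenly. Knockout 1 had the highest value of all 6 mice for 14 of the 38 genes (36.8%), against 20.1% of all genes tested, and control 3 for another 14 (36.8%), against 18.3%. The lowest value was that of knockout 2 for 12 genes (31.6%, against 17.2%) and that of control 2 for 11 (28.9%, against 13.9%). Mice at both ends therefore came from both genotypes. These shares are descriptions, since the genes share the 6 arrays.

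The wider chromatin machinery was read from a list of 174 other genes of the same classes, of which 136 were on the array and 124 passed the dim filter. In it 0 genes were called, and 16 had an unadjusted p under 0.05 (12.9%, against 8.85% of all genes), 8 higher and 8 lower. Groups did not overlap for 22 genes (17.7%, against 14.2%). The median difference was 0.015, with 72 above 0 and 52 below, and the median size was 0.053. Over all 10399 genes tested the median was -0.003, with 5006 above 0 and 5393 below, and the median size was 0.042. Whether the list departs from the array in these values was not tested.

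The smallest unadjusted p in this wider list was that of Smarcd1, a BAF subunit, which read -0.324, -0.25 and -0.212 in knockouts and -0.424, -0.442 and -0.468 in controls. All knockouts were higher, with a difference of 0.182 (SE 0.046, unadjusted p = 0.00146, adjusted p = 0.325). Phf8, an X-linked histone demethylase gene, was lower in all knockouts, at -0.204 (SE 0.057, adjusted p = 0.372). Sin3b, a scaffold of the SIN3 deacetylase complexes, read -0.267, -0.142 and -0.171 in knockouts and -0.058, 0.013 and 0.004 in controls. All knockouts were lower, by -0.18 (SE 0.052, adjusted p = 0.397). Kdm1b, a lysine 4 demethylase gene, was also lower in all knockouts on its brightest probe, at -0.165 (SE 0.05, adjusted p = 0.397), and the mean of its tested probes gave -0.042.

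In the polycomb class Yaf2, a PRC1 subunit, differed by -0.153 (SE 0.048, adjusted p = 0.413) and Phc1, another, by 0.118 (SE 0.048, adjusted p = 0.502), and neither overlapped between genotypes. The X-linked cohesin subunit gene Stag2 differed by -0.133 (SE 0.05, adjusted p = 0.472) and Zbtb33, the X-linked gene of the methyl-CpG reader Kaiso, by -0.123 (SE 0.05, adjusted p = 0.501). The acetyltransferase gene Kat6b differed by 0.122 (SE 0.051, adjusted p = 0.519). Uhrf2 (-0.099), the relative of Uhrf1, the nuclear receptor coactivator gene Ncoa1 (0.102) and the mitochondrial deacylase gene Sirt5 (-0.116) overlapped, with adjusted p of 0.603, 0.615 and 0.643.

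Of the histone demethylase genes on the sex chromosomes, Kdm5d and Kdm6a stood apart in control 3. The Y-linked Kdm5d read 0.371, 0.395 and 0.271 in knockouts and 0.504, 0.561 and -0.749 in controls. Its difference was 0.241 with all mice and -0.186 without control 3. Kdm6a, X-linked and known to escape X inactivation, read 2.169, 1.931 and 1.894 in knockouts and 2.072, 1.923 and 2.417 in controls, and its difference was -0.139 with all mice and 0 without control 3. The X-linked Kdm5c (0.053) and the Y-linked Uty (0.028) had adjusted p of 0.848 and 0.944, and their signs turned without knockout 1 and without control 3, respectively. None of these 4 genes was called.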

How the data were processed

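Labelled RNA of 3 knockout and 3 control mice, separate mice per the series' design, was read on 1 bead array each. The values are scores: each array deposited by the authors has mean 0 and SD 1 over its probes, as the values show, with a range of -1.029 to 5.019. Per the submitters' processing notes, GenomeStudio 2010.1 was among the tools. Any background correction is not given in the sources used here. Columns of other samples numbered 0.

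The scores were quantile-normalized between arrays, since quartiles differed by up to 6.93% of the interquartile range. The 10279 probes whose mean fell below the 40th percentile counted as dim and were dropped. The others were compared by limma 3.58.1 under R 4.3.3 (lmFit, then eBayes with trend; two-sided), with Benjamini-Hochberg adjustment over 15418 probes and a threshold of 0.05. The SE is limma's moderated one. The procedure was checked on simulated data with shifts larger than any difference of the chromatin genes in the main fit. Shifts of the sizes found for those genes were not simulated. The test, usual for log2 values, was run here on the z scale. No detection p-values were used, and the number of arrays limits the precision.

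Names came from the platform annotation, with symbols updated to RefSeq's GRCm38.p6 (23978 probes with 1 gene, 0 with several, 1719 with none). Each gene was summarised by its probe with the highest mean over the 6 arrays. Values in all mice are given for the 3 genes of each class with the smallest p and for Ezh2, Dnmt1, Hdac1, Satb1, Ctcf and Kansl1l, and 2 genes per class are named from the wider list, with the sex-linked Kdm5c, Kdm5d, Kdm6a and Uty. The genes, lists and rules were chosen with earlier results of these data known. Same-numbered mice deviated from their group means with correlations of -0.0338, 0.167 and 0.0346. So few correlations cannot exclude pairing, and the numbers were not used as pairs in the main fit. Alternatives covered normalization, filter, variance model, array weights, block, probe choice and each mouse left out.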

Additional observations from a re-analysis of the deposited data

How the results depend on the processing

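The 44 named genes and probes other than Klf4 had 12 to 14 alternatives each. Some probes fall under the stricter filter, and a further probe of a gene has no mean over probes. Of the 44, 33 kept their sign. The filters, the variance models and the block leave the estimate itself unchanged, so these alternatives could not turn a sign. Many of the genes were also named for the smallest p of their class in these same data. Of the 44, 43 were never called. The exception was Kansl1l without knockout 1, so the count of chromatin genes called lower was 0 to 1 with 1 mouse left out. Chromatin genes at an unadjusted p under 0.05 numbered 0 to 2 higher and 1 to 3 lower with 1 mouse left out, and their median difference was -0.025 to 0.02 over all alternatives. Probes of the array called higher numbered 1 with a robust variance, 2 with the replicate number as a block, and 0 to 1 with 1 mouse left out. Probes called lower numbered 0 with the stricter filter (60th percentile), 1 without the trend, and 1 to 4 with 1 mouse left out. The Klf4 probes called in the main fit fell under the stricter filter and were not tested there. The block changed no call among the chromatin genes. Under it the adjusted p of Chd4 probe ILMN_2654822 was 0.0646, and the mice did not each correlate best with their own number.

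Signs turned for the following genes and probes. On the deposited scores Uhrf1 was 0.024. With the mean of a gene's probes, Uhrf1 was 0.065, Kat2b 0.021, Ezh2 -0.047 and Ezh1 -0.024. With array weights Satb1 was -0.004 and Uty -0.006. With 1 mouse left out the ranges were -0.014 to 0.061 for Dnmt3b, -0.051 to 0.013 for Uhrf1, -0.058 to 0.075 for Ep300, -0.019 to 0.024 for Satb1, -0.004 to 0.096 for Kdm5c, -0.186 to 0.468 for Kdm5d, -0.247 to 0 for Kdm6a, -0.049 to 0.116 for Uty and -0.052 to 0.14 for Klf4 probe ILMN_2999439. The cause was not tested. The alternatives for Chd4 and for the further Chd4, Ezh1 and Ezh2 probes were chosen after seeing the data.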
